A study of Mus musculus with 2 samples.

Results

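The ribosomal protein genes are 83 of the 32285 genes counted in single cells of mouse epididymal fat. They were taken by symbol: Rps or Rpl with a number and at most a short suffix, plus Rplp0, Rplp1, Rplp2 and Rpsa, leaving out pseudogenes named as such and the S6 kinases. By subunit, 32 belong to the small and 48 to the large subunit, and 3 form the P stalk, the flexible arm of the large subunit that recruits elongation factors. All 83 are annotated as protein-coding. They lie on 19 chromosomes, with 4 on the X chromosome.

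The ribosome joins a small subunit, which reads the mRNA, to a large subunit, which forms the peptide bond. Each subunit is made of ribosomal RNA and many proteins that are usually present in equal numbers, and a cell's supply of these proteins follows its growth and protein synthesis. Their mRNAs begin with a run of pyrimidines, the 5′ terminal oligopyrimidine tract, through which mTOR signalling controls their translation, and a few of the proteins have a paralogous copy with a more restricted expression.

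The stromal vascular fraction, the non-adipocyte cells of fat, was taken from epididymal white adipose tissue of mice after 10 weeks of high-fat diet, with 1 library from mice that lack Camk2d conditionally in the myeloid lineage and 1 from the wild type. Both libraries were made on the Chromium Single Cell 3′ platform, and the labels place them in 1 batch. The labels do not name the Cre driver, the deleted exons, the sex or the number of animals behind a library, and a description field names hindlimb where every other field names fat. With 1 library per genotype, a difference between genotypes and a difference between libraries cannot be told apart: no test was made, and every interval is an exact 95% interval that covers counting error only.

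The knockout library held 10631 barcodes and 87015918 UMIs, and the wild-type library 15555 barcodes and 75436677 UMIs. The wild-type library thus held more barcodes than the 10000 to 13000 cells loaded, while the knockout library lay within that range. The shallowest barcode held 500 UMIs (knockout) or 1276 UMIs (wild type), and 48 barcode sequences occurred in both. After filtering, 9200 knockout cells (median 8257 UMIs) and 14854 wild-type cells (median 3122.5 UMIs) were left, of which 81.0% and 58.8% fell into 8 marker-gated classes. Of the other cells, 1488 and 5870 were left without a class, with medians of 1311 and 1883 UMIs. They passed no gate or, for 121 and 141 of them, gates of more than 1 lineage. Camk2d, the targeted gene, stood in macrophage-like cells at 25.5 CPM, the UMIs of a gene scaled to a fixed library total, in the knockout library against 46.1 CPM (log2 ratio -0.85, interval -1.03 to -0.68). In dendritic-like cells it stood at 15.7 against 33.2 CPM (-1.08, interval -1.68 to -0.50). It was also lower in progenitor-like cells (-0.11, interval -0.19 to -0.03), where the median over all genes compared was -0.07. In erythroid-like cells it stood at -1.92 on 4 and 58 UMIs (interval -3.85 to -0.49), where that median was -1.67. The intervals of the other 4 classes held 0, with 184 and 175 CPM in B-like cells. Camk2d reads were not split into deleted and kept exons. Collagen mRNA of Col1a1, Col1a2 and Col3a1, made by stromal cells, summed in T-like cells, which should lack it, to 93.1 CPM (knockout) and 661 CPM (wild type), a measure of cell-free RNA. Its part in the values that follow was not tested.

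The sequences at the transcription starts of 7 members set 4 abundant members beside 3 copies and show where pyrimidine runs lie. They come from RefSeq on GRCm38.p6, whose promoter windows matched 63 of the 83 members. Each line holds 40 bases before the annotated start and 20 from it, on the gene's own strand. Capitals mark matches to CTTTC, to the variant CTTTT, and to the variant CTTCC, short pyrimidine runs after a C that were searched on the gene's strand, and to CCGGAAG, the core bound by ETS factors, searched on both strands.
Rpl13: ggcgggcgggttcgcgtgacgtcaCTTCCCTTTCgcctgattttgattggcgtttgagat
Rps24: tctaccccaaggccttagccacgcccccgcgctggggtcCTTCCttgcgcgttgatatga
Rps12: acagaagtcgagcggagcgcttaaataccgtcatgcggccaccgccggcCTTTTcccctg
Rps27: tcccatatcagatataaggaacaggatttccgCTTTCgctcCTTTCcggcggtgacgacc
Rps27l: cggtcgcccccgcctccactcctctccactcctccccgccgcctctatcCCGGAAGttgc
Rpl22l1: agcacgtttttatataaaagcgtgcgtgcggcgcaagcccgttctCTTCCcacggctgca
Rpl7l1: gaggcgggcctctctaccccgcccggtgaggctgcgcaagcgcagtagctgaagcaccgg

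Rpl13 and Rps24 are among the most abundant members, Rps12 is the member that departed most between the libraries in B-like cells, and Rps27l, Rpl22l1 and Rpl7l1 are the copies that departed most between cell classes, with Rps27 as the parent of Rps27l. The Rpl13 window lies at chr8:123102310-123102369 and the Rps24 window at chr14:24490638-24490697, both on the plus strand. The Rps12 window is chr10:23787190-23787249 and the Rps27 window chr3:90213629-90213688, both on the minus strand. Rps27l is at chr9:66946046-66946105 and Rpl22l1 at chr3:28805468-28805527 on the plus strand, and Rpl7l1 at chr17:46782637-46782696 on the minus strand. Within 50 bases either side of the start, CTTTC occurred in 50.8% of the 63 members and in 14.6% of 27025 genes. CTTCC was found in 46% of members against 22.2% of genes, and CTTTT in 23.8% against 12.6%. CCGGAAG was found in 22.2% of members and 5.98% of genes. All 6 copies were in the table, and of these CTTTC was present in Rpl39l alone and CCGGAAG in Rps27l alone. CTTTT was present in Rpl39l, and CTTCC in Rpl22l1, Rpl3l and Rps27l. Any of the 3 pyrimidine runs was found in 4 of the 6 copies, in 77.8% of members and in 40% of genes. A match of these letters is a description and not a binding site.

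Ribosomal protein mRNA made up 14.99% of all UMIs in the knockout library and 15.7% in the wild type. A 3′ library counts 1 tag per molecule, so UMIs can be set side by side between genes without a length correction, but a member with near-identical processed pseudogenes may lose or gain tags. Among the members, 71 had a mean level above 1000 CPM over the gated cells, and the median member had 1926 CPM. Among the most abundant were Rps29, a zinc-binding protein of the small subunit, at 4304 CPM (knockout) and 4734 CPM (wild type), Rplp1, an acidic stalk protein, at 3686 and 4167 CPM, Rpl13 at 3379 and 3680 CPM, and Rps24 at 3561 and 3312 CPM. Among these, Rpl13 and Rps24 changed places between the libraries, and Rps29 and Rplp1 kept theirs.

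Outside erythroid-like cells, the share of UMIs from ribosomal proteins differed more between cell classes than between the libraries. B-like cells were highest, with 29.1% of UMIs for knockout cells and 33.0% for wild-type cells, and the classes below are given in this order of libraries. Dendritic-like cells, the antigen-presenting cells that carry Flt3 and Clec9a or Cd209a, followed with 25.5% and 23.7%, and T-like cells with 24.6% and 23.7%. Natural killer-like cells had 20.7% and 20.6%. A step down led to progenitor-like cells, the fibroblasts and adipose progenitors, with 13.4% and 14.0%, macrophage-like cells with 11.8% and 12.99%, and blood endothelial-like cells with 10.9% and 10.8%. Erythroid-like cells, rich in haemoglobin mRNA, were lowest with 2.07% and 7.26%. In the wild type alone, 53 mesothelial-like cells had 11.8% and 50 cells of the type 2 innate lymphoid gate 20.5%.

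The order of classes was the same in the 2 libraries except that dendritic-like and T-like cells changed places. Neighbours in this order overlapped in the middle 50% of their cells, apart from blood endothelial-like and erythroid-like cells of the knockout. Classes far apart in the order did not: the middle 50% of cells ran from 24.97% to 32.8% in knockout B-like and from 8.23% to 13.4% in knockout macrophage-like cells, and from 22.1% to 36.6% and from 9.67% to 14.3% in the wild type. Within the family the split was nearly fixed. Small-subunit genes gave 44.2% to 47.1% of ribosomal protein UMIs in the 8 classes of both libraries.

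**Figure D1:**
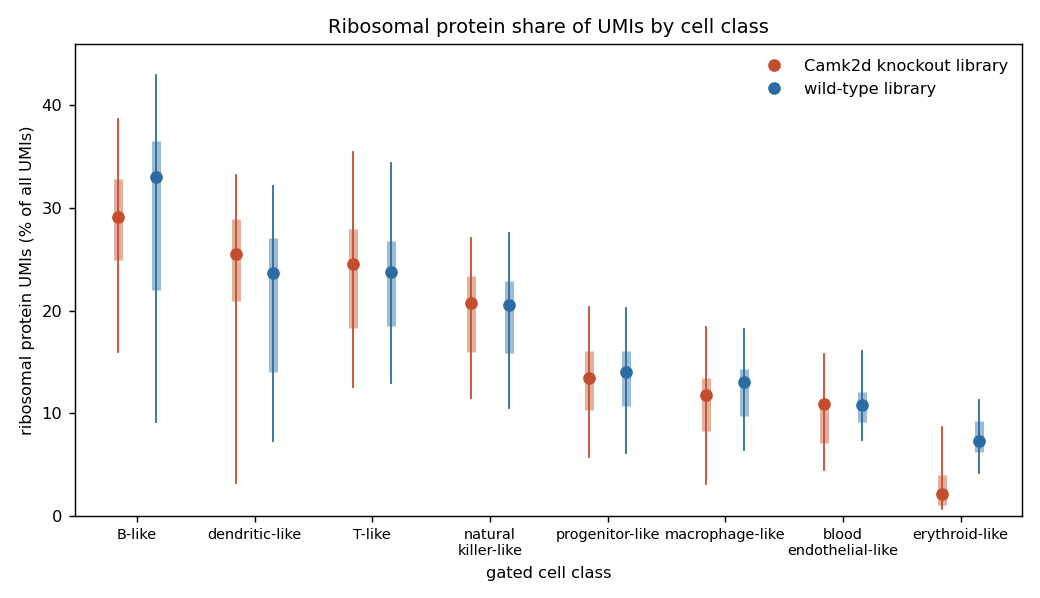
Share of UMIs from the 83 ribosomal protein genes (percent of all UMIs, vertical axis) in 8 gated cell classes of the knockout (orange) and wild-type (blue) libraries. Points are summed UMIs of a class, thick bars the middle 50% of its cells and thin lines the 5th to 95th percentile; B-like cells are highest in both libraries and erythroid-like cells lowest.

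The number of cells behind these shares ran from 124 natural killer-like to 4150 progenitor-like cells in the knockout and from 120 blood endothelial-like to 3318 progenitor-like cells in the wild type. Between the libraries, the knockout share was lower in macrophage-like cells (log2 ratio -0.141, interval -0.144 to -0.138), B-like cells (-0.18) and progenitor-like cells (-0.06), and higher in dendritic-like (0.11), T-like (0.05) and natural killer-like cells (0.01). In blood endothelial-like cells the ratio was 0.01 with an interval from -0.0002 to 0.0247. Erythroid-like cells had the largest gap, at -1.81.

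Depth moved with these ratios. Knockout cells were deeper in every class, with medians of 11772.5 against 6611 UMIs in macrophage-like and 12644.5 against 6176.5 UMIs in dendritic-like cells. Up to 16000 UMIs, deeper cells of the lymphoid and dendritic-like classes had a higher ribosomal protein share. In wild-type dendritic-like cells it went from 11.2% at 500 to 2000 UMIs to 26.8% at 8000 to 16000 UMIs. In wild-type T-like cells it went from 15.9% to 26.7% over the same ranges. Erythroid-like cells ran the other way, from 8.85% to 4.81% between 500 to 2000 and 4000 to 8000 UMIs in the wild type. Among cells of the same UMI range in both libraries, the log2 ratio was below 0 in all 8 classes, with -0.02 in dendritic-like, -0.06 in T-like, -0.24 in natural killer-like cells and -0.21 for the blood endothelial-like class, so that these 4 changed sign. The knockout share was the lower one in 21 of the 24 depth ranges that held 20 cells or more of each library. These ranges are parts of the same 2 libraries and are not independent. The range of 500 to 2000 UMIs is not matched in depth in any class, as the shallowest wild-type barcode held 1276 UMIs.

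**Figure D2:**
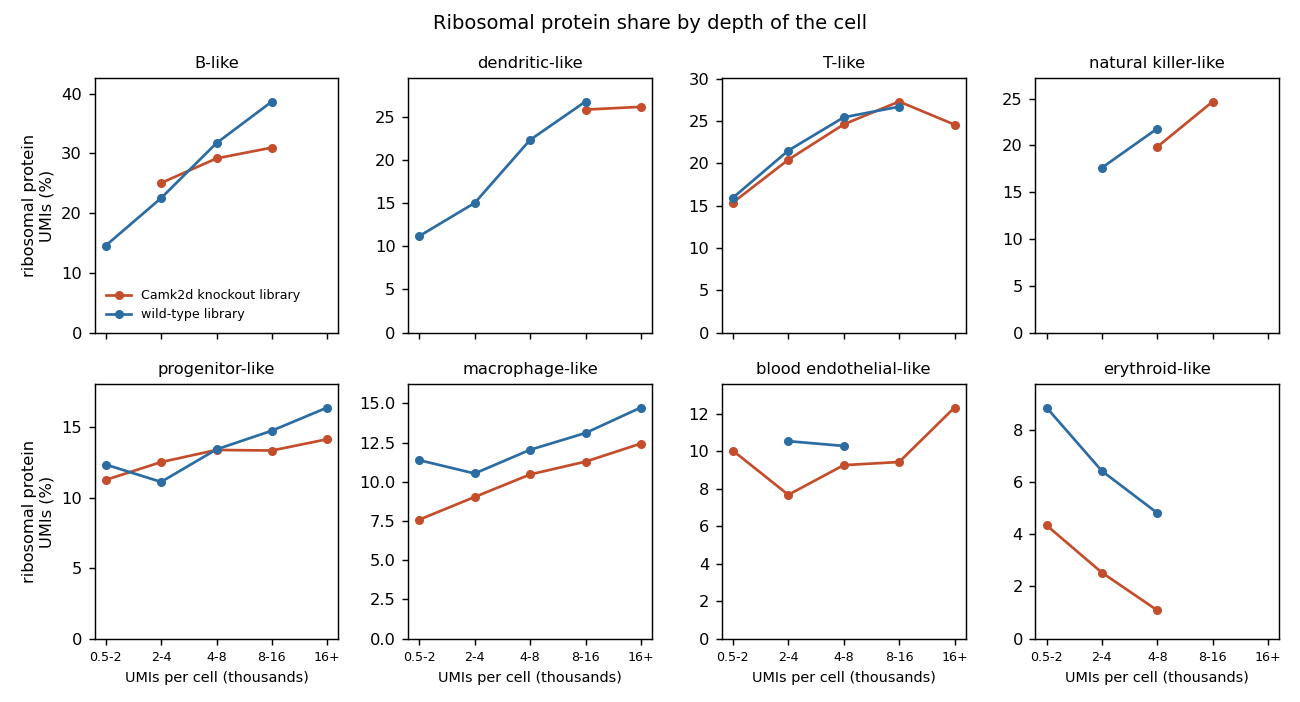
Share of UMIs from ribosomal protein genes (percent, vertical axis, from 0) by UMIs per cell (5 ranges) in each class, for the knockout (orange) and wild-type (blue) library. Points need at least 20 cells; the share rises with depth in most classes and falls in erythroid-like cells, and the knockout line lies lower in 21 of 24 shared ranges.

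In macrophage-like cells the knockout share was lower in every depth range: 7.58% against 11.4% below 2000 UMIs, 10.5% against 12.04% at 4000 to 8000 UMIs, and 12.4% against 14.7% above 16000 UMIs. The lowest range is not matched in depth, as knockout barcodes start at 500 and wild-type ones at 1276 UMIs. The knockout share was lower too in both macrophage subsets. Cells high for lipid-associated macrophage genes had 12.5% (167 knockout cells) and 13.7% (493 wild-type cells), and cells high for resident macrophage genes had 9.82% (342 cells) and 10.9% (446 cells). Cycling macrophages, with at least 3 proliferation markers, had 13.3% and 14.4%, above the 10.9% and 12.1% of those with none, and they were also deeper (24495 against 10291.5 UMIs in the knockout). Among knockout T-like cells, cycling cells had the lower share, 20.6% (59 cells, median 11475 UMIs) against 25.1% of those with no proliferation marker (781 cells, 4824 UMIs). Collagen mRNA in macrophage-like cells was 131 CPM (knockout) and 443 CPM (wild type). Whether cell-free RNA carries the lower share of knockout macrophage-like cells was not tested.

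The lymphoid and stromal classes were not uniform either. T-like cells high for naive genes had 27.6% (knockout) and 25.7% (wild type), against 21.8% and 22.5% in cells low for them, at similar depth (5210.5 and 4943 UMIs in the knockout). Cells with Cd8a or Cd8b1 had 26.4% and 26.0%, and cells with Cd4 and no Foxp3 had 22.2% and 21.0%. Among progenitor-like cells, those high for interstitial progenitor genes had 15.1% and 15.2% and those high for committed preadipocyte genes 10.1% and 12.2%.

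In erythroid-like cells haemoglobin was a large part of all UMIs. Haemoglobin summed to 755272 CPM over 196 knockout cells and 439328 CPM over 1002 wild-type cells, so the totals behind the shares differed in make-up. The cell filter and doublet scores had left 196 of 867 knockout but 1002 of 1016 wild-type barcodes in this class. Over every deposited barcode the log2 ratio of the share was -1.65. With haemoglobin and mitochondrial UMIs left out of the total, ribosomal proteins took 8.78% (knockout) and 13.2% (wild type), a log2 ratio of -0.59 in place of -1.81. Collagens in this class were 220 against 1185 CPM, so the part of free RNA in the wild-type value was not tested.

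Single members moved little between the libraries. In this count a gene is called when its CPM differs by at least 1.5-fold, with a mean of at least 50 CPM and 30 UMIs or more in the higher library. Of the 83 members, 79 could be compared in every class, Rpl7l1 in dendritic-like cells only, and Rpl10l, Rpl3l and Rpl39l in none. No member was called in macrophage-like cells (background 4.04% of genes higher and 2.12% lower), dendritic-like cells (2.93% and 4.64%), T-like cells (5.84% and 5.92%), natural killer-like cells (9.69% and 6.67%), progenitor-like cells (4.82% and 5.57%) or blood endothelial-like cells (6.29% and 4.86%). In B-like cells 0 were higher (background 9.67%) and 6 were lower (background 7.97%). In erythroid-like cells all 79 were lower, where 83.8% of all genes were, and none was higher (background 5.43%). With the median ratio of all genes set to 1, 3 members were called there. The share of all genes called under that scaling is not given, so this count has no background. The spread of members was narrow: the SD of their log2 ratios was 0.12 in macrophage-like cells, where that of all 2647 genes tested was 0.34, and 0.24 against 0.59 in B-like cells. Members are abundant, so their counting error is smaller than that of most genes.

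The median log2 ratio of members was -0.17 in macrophage-like cells, where all genes tested had -0.05. It was -0.12 against 0.09 in B-like cells and -0.06 against -0.07 in progenitor-like cells. In dendritic-like cells it was 0.10 against 0.04, and in blood endothelial-like cells 0.01 against -0.02. T-like cells had 0.04 against 0.11 and natural killer-like cells 0.01 against 0.10, so these 2 medians lie above 0 on the CPM scale and below the median of all genes. In erythroid-like cells the values were -1.81 and -1.67.

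**Figure D3:**
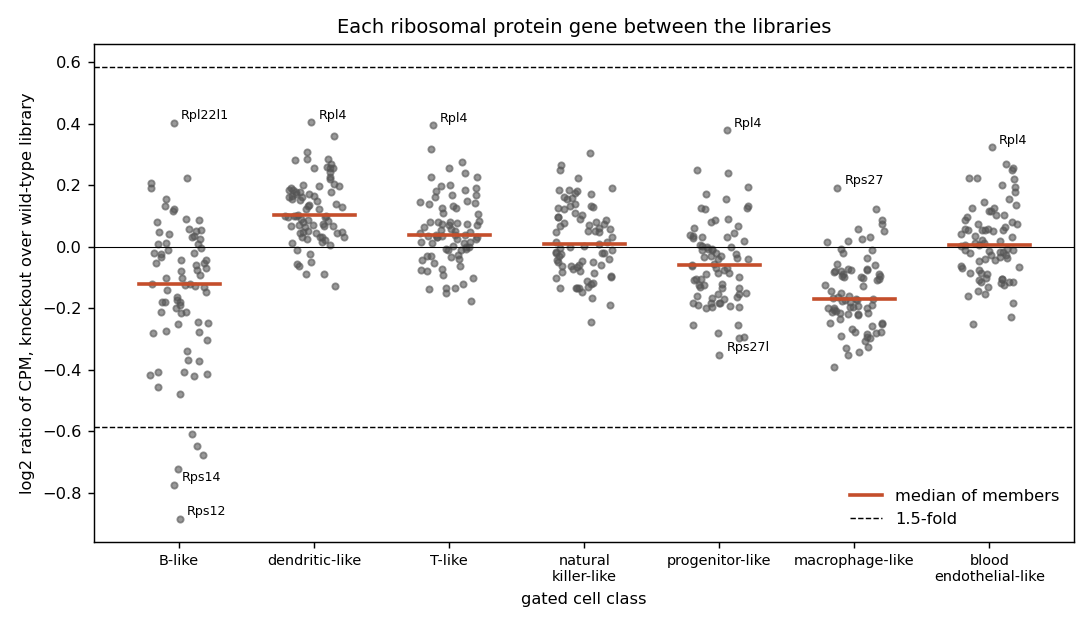
Log2 ratio of CPM, knockout over wild-type library, for each ribosomal protein gene that could be compared (grey points) in 7 classes, with the median of members (orange bar) and 1.5-fold lines (dashed). Of these 7 classes, points lie beyond the lines only in B-like cells, with Rps12 and Rps14 lowest; erythroid-like cells, all lower, are not drawn.

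Some members kept 1 direction relative to the rest of the family. Measured as a share of ribosomal protein UMIs, 13 of 80 members were higher in the knockout in all 8 classes and 8 were lower in all 8. The classes of a library share its chemistry, depth and free RNA and are not independent. Shares of 1 sum cannot all move the same way, and the same count over all genes is not given, so these counts have no background. Rpl4, a large-subunit protein at the wall of the peptide exit tunnel, was highest. Its CPM (knockout, then wild type) was 459 and 421 in macrophage-like cells, 893 and 680 in T-like cells, and 714 and 550 in progenitor-like cells, and its log2 ratio within the family had a median of 0.30 over the classes. Rps27, a zinc-finger protein of the small subunit, followed with a median of 0.28 and a range from 0.18 to 0.39. With these, the group of 13 held Rpl5, Rpl6, Rpl9, Rpl10, Rpl21, Rpl23, Rpl39, Rps7, Rps15a, Rps23 and Rps24. The group of 8 held Rplp1, Rps12, Rps14, Rps15, Rps18, Rpl8, Rpl10a and Rpl36, and Rps14 was lowest with a median of -0.21. These genes, apart from Rplp1, Rps24, Rps27 and the parent genes Rpl10 and Rpl39, were picked out after their values were seen.

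The 6 members lower in B-like cells were 6 of 79, a share near the background of that class. Rps12, a small-subunit protein encoded on chromosome 10 (23785183 to 23787275, minus strand), stood at 5484 CPM (13167 UMIs) in knockout cells and 10122 CPM (35081 UMIs) in wild-type cells. Within the family this was a log2 ratio of -0.70 (interval -0.73 to -0.68), past the 1.5-fold line. Rps14 was at 4503 and 7700 CPM (-0.59 within the family, interval -0.63 to -0.56). The other 4 members called on the CPM scale were Rps18 (5274 and 8691 CPM), Rpl36 (3341 and 5339 CPM), Rps10 (4377 and 6849 CPM) and Rpl8 (3455 and 5267 CPM). The largest shift the other way within the family was that of Rpl22l1, at 661 and 500 CPM (0.58). Erythroid-like cells held 1 member past 1.5-fold within the family, Rps27l, at -0.65 on 17 and 358 UMIs (interval -1.45 to 0.05), and among cells of the same UMI range they held 6, against 4 in B-like cells.

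These differences moved with B-like cells that hold Mgmt mRNA. A UMI of Mgmt, the gene of a DNA repair enzyme, was found in 223 of 597 wild-type B-like cells (37.4%) and 26 of 347 knockout ones (7.49%), against 3.36% and 1.62% of T-like cells, at median depths of 4730, 5636, 3828 and 5067.5 UMIs. In macrophage-like cells the shares were 9.05% and 9.63%. Wild-type B-like cells with an Mgmt UMI had 38.1% ribosomal protein UMIs, and those without had 25.4%. They were also deeper, with medians of 9237 and 3354 UMIs. At 4000 to 8000 UMIs the shares were 35.7% with (70 cells) and 28.9% without (123 cells). Knockout B-like cells without an Mgmt UMI had 29.0% in that range (168 cells). At 2000 to 4000 UMIs, cells without an Mgmt UMI had 25.05% (59 knockout cells) and 22.3% (204 wild-type cells), so the knockout share was the higher one there. Mgmt was chosen after its values were seen.

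Of the members, Rps12 was at 13338 CPM in wild-type B-like cells with an Mgmt UMI and 5395 CPM in those without. Rps18 was at 11497 and 4565 CPM, and Rps14 at 9630 and 4863 CPM. On the CPM scale, 30 of 80 members were at least 1.5-fold higher in cells with an Mgmt UMI (background 8.84% of genes) and 0 were lower (background 22.6%). Within the family, 2 of 80 were past 1.5-fold higher, Rps18 (log2 0.75) and Rps12 (0.72), and 0 were lower, with 0.40 for Rps14. In the knockout, over 26 cells with an Mgmt UMI, the same contrast within the family was smaller: 0.20 for Rps18, 0.09 for Rps12 (interval 0.02 to 0.16) and 0.05 for Rps14. On the CPM scale 1 of 79 members was higher there (background 8.41%), Rps27l, and 0 were lower (background 10.9%).

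Without cells that hold an Mgmt UMI, the B-like log2 ratio of the share between libraries became 0.17, and on the CPM scale 0 members were called higher (background 4.18%) or lower (background 8.71%), at median depths of 5325 and 3354 UMIs; Rps12 was then at -0.18 and Rps14 at -0.31 within the family.

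**Figure D4:**
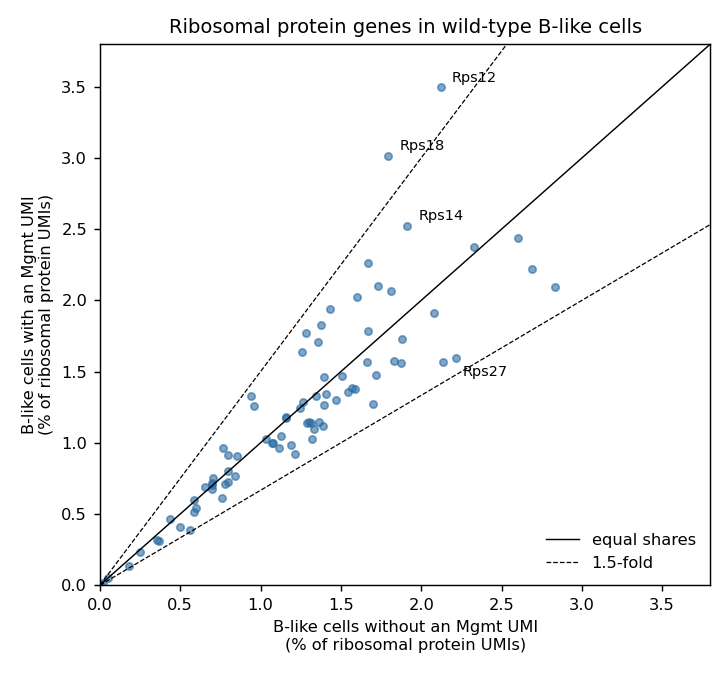
Share of ribosomal protein UMIs taken by each member (percent) in wild-type B-like cells with (vertical axis) and without (horizontal axis) an Mgmt UMI; the solid line marks equal shares and the dashed lines 1.5-fold. Rps12 and Rps18 lie past the upper line.

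Across cell classes the paralogous copies varied most. A member's share of ribosomal protein UMIs in a class was set over its median across the 8 classes, in each library by itself. At 2-fold in both libraries, 1 pair of gene and class stood out: Rps27l in B-like cells, at log2 -1.24 (knockout) and -1.62 (wild type). The divisor is the ribosomal protein UMIs, whose share of all UMIs was highest in B-like cells. On the CPM scale Rps27l was not lowest there: erythroid-like cells had 29.7 (knockout) and 164 (wild type), on 17 and 358 UMIs. Rps27l, a p53-induced copy of Rps27 encoded on chromosome 9 (66946086 to 66949516, plus strand), was at 167 and 178 CPM in B-like cells, 181 and 181 CPM in T-like cells, 280 and 324 CPM in macrophage-like cells and 476 and 415 CPM in dendritic-like cells. Its parent Rps27 ran the other way, with 0.43 and 0.27 in B-like and -0.15 and -0.26 in macrophage-like cells. Among macrophage-like cells, Rps27l was at 421 and 415 CPM in those high for lipid-associated genes and at 166 and 171 CPM in those high for resident genes. Both libraries gave this order, and the 2 subsets differed by more than the libraries did.

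At 1.5-fold in both libraries, a level chosen after the data were seen, 7 pairs of 3 genes stood out, and all 3 genes are copies. They were Rps27l (lower in B-like and T-like, higher in macrophage-like cells), Rpl7l1 and Rpl22l1. Rpl7l1, a nucleolar copy of Rpl7 that works in ribosome assembly, was higher in macrophage-like cells (0.83 and 0.74), higher among blood endothelial-like cells (0.79 and 0.68), and lower in the T-like class (-0.87 and -0.64). Its level was low, 44.1 and 51.7 CPM in macrophage-like cells, and rested on 56 and 30 UMIs in blood endothelial-like cells. Rpl22l1, the copy of Rpl22, took a lower share of the family in dendritic-like cells (-0.69 and -0.80) at 415 and 396 CPM, and stood at 551 and 521 CPM in progenitor-like and 669 and 621 CPM in T-like cells. Its CPM was not lowest there: macrophage-like cells had 298 and 364, and the blood endothelial-like class 351 and 348. Rpl22 itself stayed between -0.10 and 0.16 in every class.

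**Figure D5:**
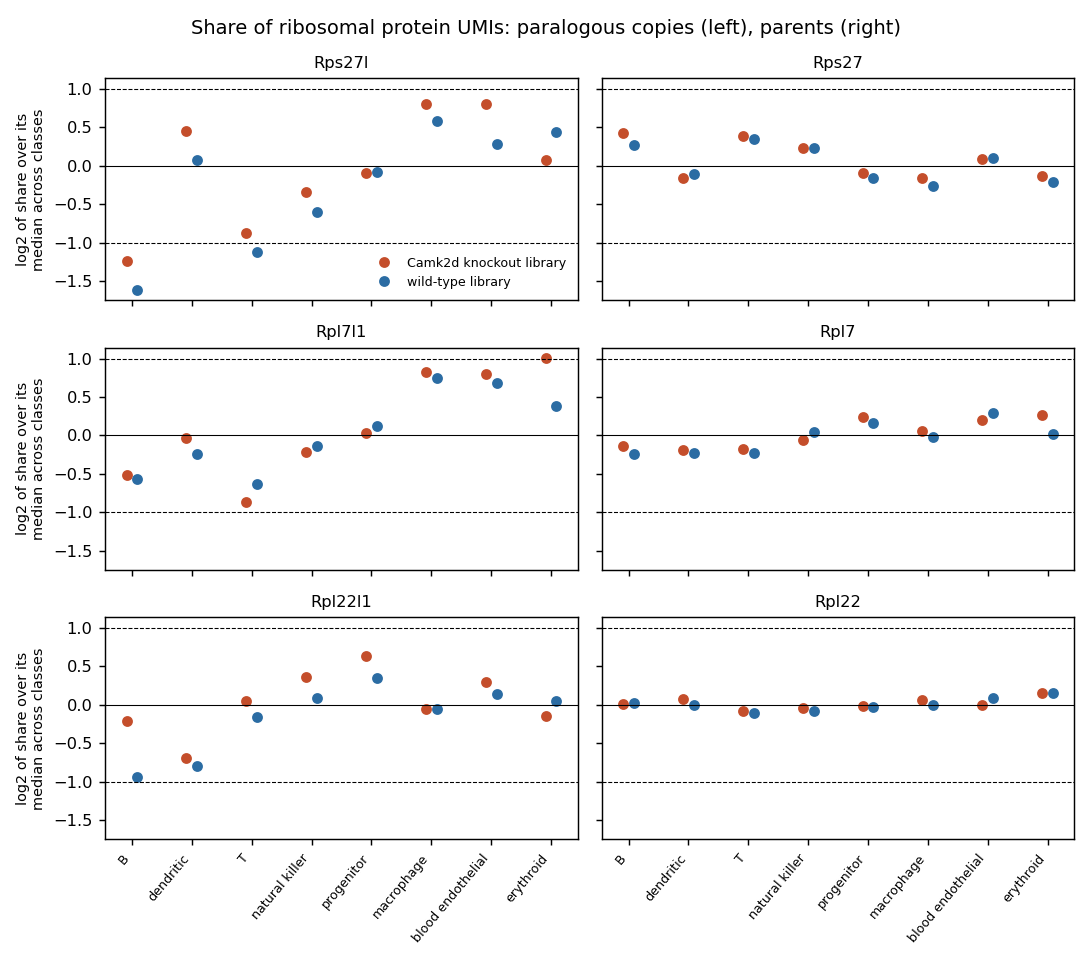
Log2 of a gene's share of ribosomal protein UMIs in a class over its median across 8 classes (vertical axis) for 3 copies (left) and their parents (right), in the knockout (orange) and wild-type (blue) library; dashed lines mark 2-fold. Rps27l spans more than 2 log2 units between macrophage-like and B-like cells, while Rpl22 and Rpl7 stay within 0.30 of 0.

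The other copies were nearly absent. Rpl39l had 201 (knockout) and 98 (wild type) UMIs over all barcodes, against 205417 and 172749 for its parent Rpl39. Rpl10l, a copy known from the testis, had 15 and 0 UMIs, where 0 allows up to 3. Rpl3l, the muscle copy of Rpl3, had 7 and 4 UMIs. Rps4x and Rps3a1, which the naming rule counts with the copies though they are main forms, stood at 2070 and 2111 CPM and at 2161 and 2084 CPM.

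Genes outside the family were ranked by how closely their level ran with it across classes. Over 16 points (8 classes in 2 libraries), the levels most like the summed ribosomal protein share were those of Eif3i, a subunit of initiation factor eIF3 (Pearson r 0.98), Rack1, a scaffold on the small subunit (0.98), Npm1, a nucleolar chaperone (0.97), Naca, which binds nascent chains (0.97), and Fau, whose product is processed to a small-subunit protein (0.96), out of 1065 genes. The next 10 genes also held Uqcrh (0.93) and Atp5g2 (0.92) of the respiratory chain and ATP synthase, named after their values were seen. Without the erythroid-like points the first 5 were 0.98, 0.97, 0.96, 0.96 and 0.94. The points of a library share its depth and free RNA, so the correlations are a description only.

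In macrophage-like cells few genes of the other translation lists were called, and few of all genes were (4.04% higher and 2.12% lower). Against that background, 0 or 1 call in a list this short says little. A mixed list of genes with a terminal oligopyrimidine tract had 0 of 16 called and a median log2 ratio of -0.13. It holds elongation and nascent chain factors, but also the initiation factors Eif3e, Eif3f, Eif3h and Eif4b and genes such as Vim and Hnrnpa1. A separate list of other initiation factors had 0 of 23 and -0.20, and mitochondrial ribosomal proteins 0 of 25 and -0.30. All genes had a median of -0.05 and the members -0.17, so that the separate initiation factor list and mitochondrial ribosomal proteins had lower medians than the family. Tpt1, the most abundant of the mixed list, was at 5428 and 5671 CPM. Of ribosome biogenesis genes 1 of 9 was called, Nhp2, a protein of H/ACA small nucleolar RNPs, at 51.5 and 78.4 CPM. Of 5 regulators of oligopyrimidine mRNAs that could be compared, 0 were called, and Larp1 was at 62.3 and 52.7 CPM.

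Handling and damage genes differed between the libraries in some classes. Immediate early and heat shock genes, which tissue digestion induces, were called higher in 7 of 16 in progenitor-like cells (background 4.82%). Their median there was 0.54, against -0.07 over all genes. In blood endothelial-like cells 7 of 15 were higher (background 6.29%), with medians of 0.55 and -0.02. In T-like cells 5 of 14 were lower (background 5.92%), with -0.46 and 0.11. Natural killer-like cells had 6 of 13 lower (background 6.67%), with -0.45 and 0.10. B-like cells had 4 of 12 lower (background 7.97%), with -0.41 and 0.09. In macrophage-like cells 2 of 15 were higher (background 4.04%), among them Zfp36 at 1593 against 873 CPM. Targets of p53 there had 2 of 5 called higher (the same background), Btg2 (630 and 413 CPM) and Cdkn1a (468 and 295 CPM). Rps27l, itself a p53 target, was at a log2 ratio of -0.21 in these cells. Their part in the ribosomal protein values was not tested.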

How the data were processed

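The authors deposited a matrix of UMI counts per gene and barcode for each library, made with Cell Ranger 5.0.0 on mm10, per the file headers and the submitters' processing notes, which also name Seurat 4.1.1. Counts were used as deposited. Cells with at least 500 UMIs, 200 genes and at most 20% mitochondrial UMIs were kept. Cells with a Scrublet score above 0.25 (scanpy 1.11.5; 4.51% of knockout and 3.12% of wild-type cells) were left out as doublets, and 121 and 141 cells that passed gates of more than 1 lineage stayed unassigned. Of the barcodes found in both libraries, 40 were kept in both and 5 had the same class.

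Classes were gated on summed marker UMIs per 10000 and a least number of markers (60 UMIs and 4 of 10 markers for macrophages). No ribosomal protein gene served as a marker. A monocyte gate was left unnamed because its leading genes went against the name, and classes under 50 cells in a library were not compared. Subsets are cells in the upper quartile of 1 marker list and at or under the median of the others.

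UMIs were summed per class and library, and CPM is a gene's UMIs scaled to a sum of 1000000. Intervals are Clopper-Pearson for shares and exact conditional for ratios, at 95%. Genes called past 1.5-fold needed a mean of 50 CPM and 30 UMIs in the higher library. On simulated counts, 100% of 2-fold changed genes were past it in macrophage-like cells with 0 of 2351 unchanged genes, and 99% with 33 of 2858 in blood endothelial-like cells.

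Named members are the 5 most abundant, those outlying in at least 3 classes or across classes, and copies with their parents. Other named genes are, per list, the most abundant and the one of largest ratio in macrophage-like cells, and the 5 of most similar pattern. A gene that this rule names is not reported here. The members and lists were chosen with earlier results of these data known. Alternatives were other cell filters, gates, denominators, scalings, folds and floors, and cells of the same UMI range (between the higher 10th and the lower 90th percentile of the libraries). Gene positions are those of the GENCODE annotation of GRCm38, the assembly of mm10, and Python 3.11.15, numpy 2.4.6, scipy 1.17.1 and pandas 2.3.3 were used.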

Additional observations from a re-analysis of the deposited data

Results flagged for a closer look

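The ratio of the ribosomal protein share between the libraries went in opposite directions in different cell classes, and this difference between classes was not tested. The log2 ratio, knockout over wild type, was 0.11 in dendritic-like, 0.049 in T-like and 0.0125 in natural killer-like cells, and -0.14 in macrophage-like, -0.18 in B-like, -0.058 in progenitor-like and -1.81 in erythroid-like cells. The directions that were positive became negative among cells of the same UMI range.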

How the results depend on the processing

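With 1 library per genotype no replicate spread is known, and intervals cover counting error only, which is smaller than many of the shifts between settings. No paired analysis was possible because each genotype has 1 library. The log2 ratio of the share (main values as above) kept its sign under every setting tried in macrophage-like, progenitor-like and erythroid-like cells. Values are given in the order macrophage-like, dendritic-like, T-like, natural killer-like, B-like, progenitor-like, blood endothelial-like and erythroid-like where all are printed. In cells of the same UMI range they were -0.18, -0.020, -0.061, -0.24, -0.21, -0.054, -0.21 and -1.69. As means of single cells they were -0.16, 0.22, 0.032, 0.038, -0.017, -0.013, -0.18 and -1.35. Without mitochondrial and haemoglobin UMIs the moved values were -0.16, 0.094, 0.0405, 0.0016, -0.20 and -0.072 in the first 6 classes and -0.59 in erythroid-like cells. Leaving out Malat1 as well gave -0.16 in macrophage-like, 0.089 in dendritic-like, -0.19 in B-like, -0.075 in progenitor-like, -0.0006 in blood endothelial-like and -0.57 in erythroid-like cells. The stricter gate gave -0.15 in macrophage-like, 0.015 in T-like, 0.034 in natural killer-like, -0.15 in B-like, -0.048 in progenitor-like, -0.15 in blood endothelial-like and -1.98 in erythroid-like cells. The stricter cell filter gave -0.15 in macrophage-like and -0.20 in B-like cells, and no value for erythroid-like cells, of which 10 knockout cells were left. Every deposited barcode gave 0.094 in dendritic-like, -0.19 in B-like and -1.65 in erythroid-like cells, and ignoring doublet scores 0.10 in dendritic-like and -0.19 in B-like cells. Without B-like cells with an Mgmt UMI, an alternative chosen after seeing the data, the B-like value was 0.17.

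Members past the fold numbered 3 in natural killer-like cells of the same UMI range and 0 in B-like cells at 2-fold or without Mgmt cells. They numbered 3 in erythroid-like cells when the median ratio of all genes was set to 1, which moves erythroid-like values by 1.67. The share of all genes called is not given for the same UMI range, 2-fold or the median scaling, so these counts have no background. Outlying members within the family in B-like cells were 2 in the main setting, 6 on the CPM scale, 1 under the stricter gate, 4 in the same UMI range and 0 without Mgmt cells. In erythroid-like cells there was 1, Rps27l (17 and 358 UMIs, log2 -0.65, interval -1.45 to 0.05), with 80 on the CPM scale, 2 under the stricter gate and 6 in the same UMI range. Across classes, 72 pairs stood out on the CPM scale and 7 at 1.5-fold. Setting the median ratio to 1 reversed the erythroid-like medians of p53 targets to 0.13 and of stress genes to 0.19. The causes were not tested.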
